A study of Mus musculus with 12 samples.

Results

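The earliest interval of cortical neurogenesis in the series was examined by comparing the cortex of mouse embryos at E15.5 with that at E12.5 (E, embryonic day). Each stage was represented by 4 arrays of a BeadChip, on which bead-bound oligonucleotides report the abundance of a transcript as a fluorescence intensity, so that 8 of the 12 arrays of the series were compared. Probes entered the comparison if any of these 8 arrays detected them (detection p-value below 0.01), which left 18323 of 45281 probes (40.5%), or 10104 of 19057 named genes. The weakest probe inside this limit had a lowest detection p-value of 0.009615 and the strongest one outside it 0.01068. The mice were wild-type, with C57BL/6J as the background strain given in the methods, and both stages were labelled as embryonic cortex with no treatment. Total RNA came from 4 embryos per stage according to the series' design text, but the labels do not tie an array to an embryo, so that the spread behind each p-value is that of these samples and may in part be technical. All 12 arrays were normalized and fitted together, so that the 4 arrays of E18.5 entered the normalization and the estimate of that spread but no comparison.

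Between these days the mouse cortex passes from a wall made largely of dividing radial glia to one in which most cells added are neurons. Radial glia divide at the ventricle and give rise to neurons directly or through intermediate progenitors, and the neurons migrate outwards, those of the deep layers first and those of the upper layers later, past the cells that preceded them. The signals that pattern the cortex (Wnt and bone morphogenetic proteins from the hem at its medial edge, fibroblast growth factors from its rostral end) act early in this period, and axons, synaptic proteins and ion channels are built up as it proceeds. The RNA came from whole tissue, in which fewer cells of a type and less RNA per cell cannot be told apart.

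One array stood apart from its stage. Across tested probes, Pearson's r of E12.5 replicate 4 was 0.977 to 0.978 with the other E12.5 arrays and 0.964 to 0.971 with the E15.5 arrays, whereas E12.5 replicates 1 to 3 had r of 0.986 to 0.994 among themselves and 0.912 to 0.938 with the E15.5 arrays. Its label gives E12.5 like those of the others. On the first principal component of the 8 arrays, which held 81.0% of the variance, the E15.5 arrays lay at 39.9 to 53.1, E12.5 replicate 4 at -14.6 and the other E12.5 arrays at -62.2 to -56.1. The numbers of calls and a selection of further results are therefore given with and without this array. The numbers of detected probes per array overlapped between the stages (15227 to 16219 at E15.5 and 15503 to 16003 at E12.5), and median signals were 88.8 to 93.3 at E15.5 and 86.1 to 88.4 at E12.5. Xist, the transcript of the inactive X chromosome, was 8.58, 4.69, 7.06 and 7.15 at E15.5 and 4.89, 4.88, 9.61 and 4.64 at E12.5, on a log2 scale. The Y-linked Eif2s3y was 4.47, 9.62, 8.78 and 8.92 at E15.5 and 9.04, 9.06, 9.04 and 9.35 at E12.5. E15.5 replicate 1 thus carried Xist alone, E15.5 replicates 3 and 4 and E12.5 replicate 3 carried both transcripts, and the remaining 4 arrays carried the Y-linked one alone. The labels do not say whether an array holds RNA of a single embryo or of several, and this was not tested. The unit of replication behind the p-values is therefore uncertain.

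Calls required a 2-fold change and an adjusted p below 0.01. By this rule 1322 probes (7.21%) had more signal at E15.5 and 1041 (5.68%) had less. Together these were 12.9% of the probes tested, and 55.9% of them were higher. Counted by gene, 814 (8.06%) were higher and 556 (5.5%) lower. The split depended on the scaling. Median scaling, under which the median log2 fold change of all probes was 0.05 in place of -0.05, gave 67.9% of the called probes as higher, and omitting the background correction gave 64.4%. Of the called genes, 187 rose and 42 fell by at least 4-fold. Without E12.5 replicate 4, 1564 probes were higher and 1264 lower, and by gene 9.52% were higher and 6.73% lower. Of the calls made with it, 1321 of the higher and 1022 of the lower ones were also made without it, and 0 probes changed direction.

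**Figure D1:**
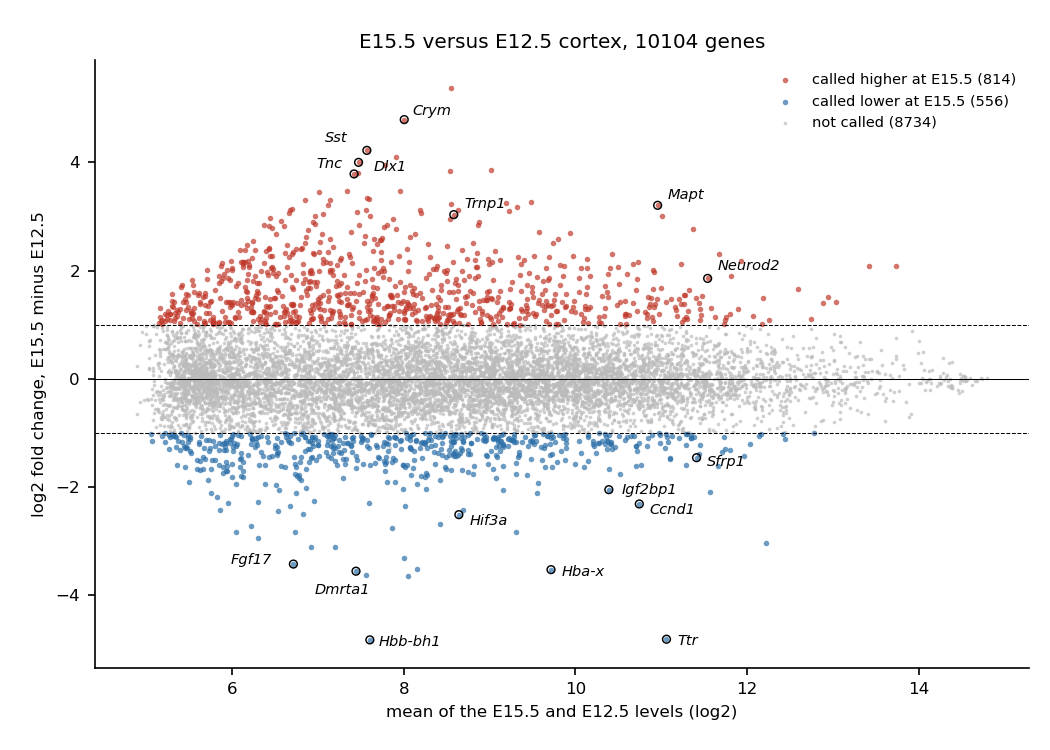
Log2 fold change (E15.5 minus E12.5, y axis) of 10104 genes against the mean of both stages' log2 levels (x axis), with 814 genes called higher in red, 556 called lower in blue and the others in grey; dashed lines mark a 2-fold change. The named genes are circled, and rises of 4-fold or more (187 genes) outnumber such falls (42 genes).

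Levels are given below as log2 values after background correction and normalization, for the arrays of a stage in the order of replicates 1 to 4, with SEs for n = 4 arrays per stage. Among genes detected on all 8 arrays with no overlap between the stages, and leaving out clone names, the 12 largest rises ranged from 7.43-fold to 9.60-fold. Trnp1, a nuclear protein that affects how radial glia divide, was 10.11, 10.07, 10.16 and 10.06 on the E15.5 arrays and 6.59, 6.42, 6.36 and 8.89 on the E12.5 arrays (log2 fold change 3.03, SE 0.42, adjusted p = 4.32e-05). Cyria, a regulator of the Rac pathway, was 12.43, 12.53, 12.55 and 12.55 at E15.5 against 9.15, 8.59, 8.72 and 11.56 at E12.5 (log2 fold change 3.01, SE 0.48, adjusted p = 1.26e-04). For both genes all E15.5 arrays lay close together and above every E12.5 array, with E12.5 replicate 4 between the stages. Without that array the log2 fold changes were 3.64 for Trnp1 and 3.69 for Cyria. The cell adhesion molecule Cdh13 was 9.48, 9.78, 10.01 and 9.64 at E15.5 against 6.15, 5.98, 6.32 and 8.23 at E12.5 (8.33-fold, SE of the log2 fold change 0.37, adjusted p = 1.63e-05). Cplx1, a complexin that acts on the fusion of synaptic vesicles, rose 8.57-fold (SE of the log2 fold change 0.40, adjusted p = 2.70e-05), and Eef1a2, the translation elongation factor isoform of neurons and muscle, rose 7.43-fold (0.39, 3.46e-05). On E12.5 replicate 4 these genes were at 8.23, 9.38 and 9.09, whereas the other arrays of this stage reached at most 6.32, 7.40 and 6.97. Genes without signal at E12.5 give a lower bound only, which sets the E15.5 mean against the higher of the lowest detected signal and the signal of the probe on each E12.5 array. Of these, Pglyrp1, a peptidoglycan recognition protein, was 6.78, 6.99, 6.97 and 7.04 at E15.5, at least 2.26-fold higher than at E12.5. In all, 91 genes called higher were detected on no E12.5 array, of 437 tested genes detected at E15.5 and on no E12.5 array. A further 146 genes called higher were detected at E12.5 on replicate 4 alone. Among genes described below, Chd5, Dlgap1, Gabbr1, Gabrb1, Gria1, Mc4r, Olig1, Ppp1r1b, Scn3b, Tubb3 and Vtn were likewise detected on 1 E12.5 array, and Ccna2 and Clic6 on 1 and Il17rd, Sall4 and Ube2c on 2 E15.5 arrays, so that their folds rest in part on signals below detection.

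The largest falls of genes detected on all 8 arrays were less affected by E12.5 replicate 4. Hif3a, a member of the hypoxia-inducible factor family, was 7.38, 7.19, 7.43 and 7.54 at E15.5 and 10.15, 9.97, 9.97 and 9.50 at E12.5 (log2 fold change -2.51, SE 0.13, adjusted p = 9.76e-08). Ror2, a receptor for Wnt5a, was 7.12, 6.40, 7.03 and 6.80 at E15.5 and 9.40, 9.43, 9.07 and 8.89 at E12.5 (-2.36, SE 0.16, adjusted p = 5.53e-07). The stages were separated by more than 1.9 log2 units for Hif3a and by more than 1.7 for Ror2, and E12.5 replicate 4 was the lowest E12.5 array for both. Otx2, a homeodomain factor of the choroid plexus and the cortical hem, fell 6.42-fold (SE of the log2 fold change 0.24, adjusted p = 2.66e-06), and its level of 7.78 on E15.5 replicate 4 was above the 6.71 to 6.98 of the other E15.5 arrays. Prr15 (5.39-fold), Gsta4 (4.88-fold), a glutathione transferase, and Ildr2 (4.34-fold) fell as well, with adjusted p of 2.76e-06, 1.20e-06 and 5.53e-07. Stat4, a transducer of cytokine signals, was detected on no E15.5 array and was 7.82, 7.97, 8.0 and 7.35 at E12.5, at least 4.02-fold lower at E15.5 (adjusted p = 9.76e-08). There were 98 such called genes, of 495 tested genes that were detected at E12.5 and on no E15.5 array.

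**Figure D2:**
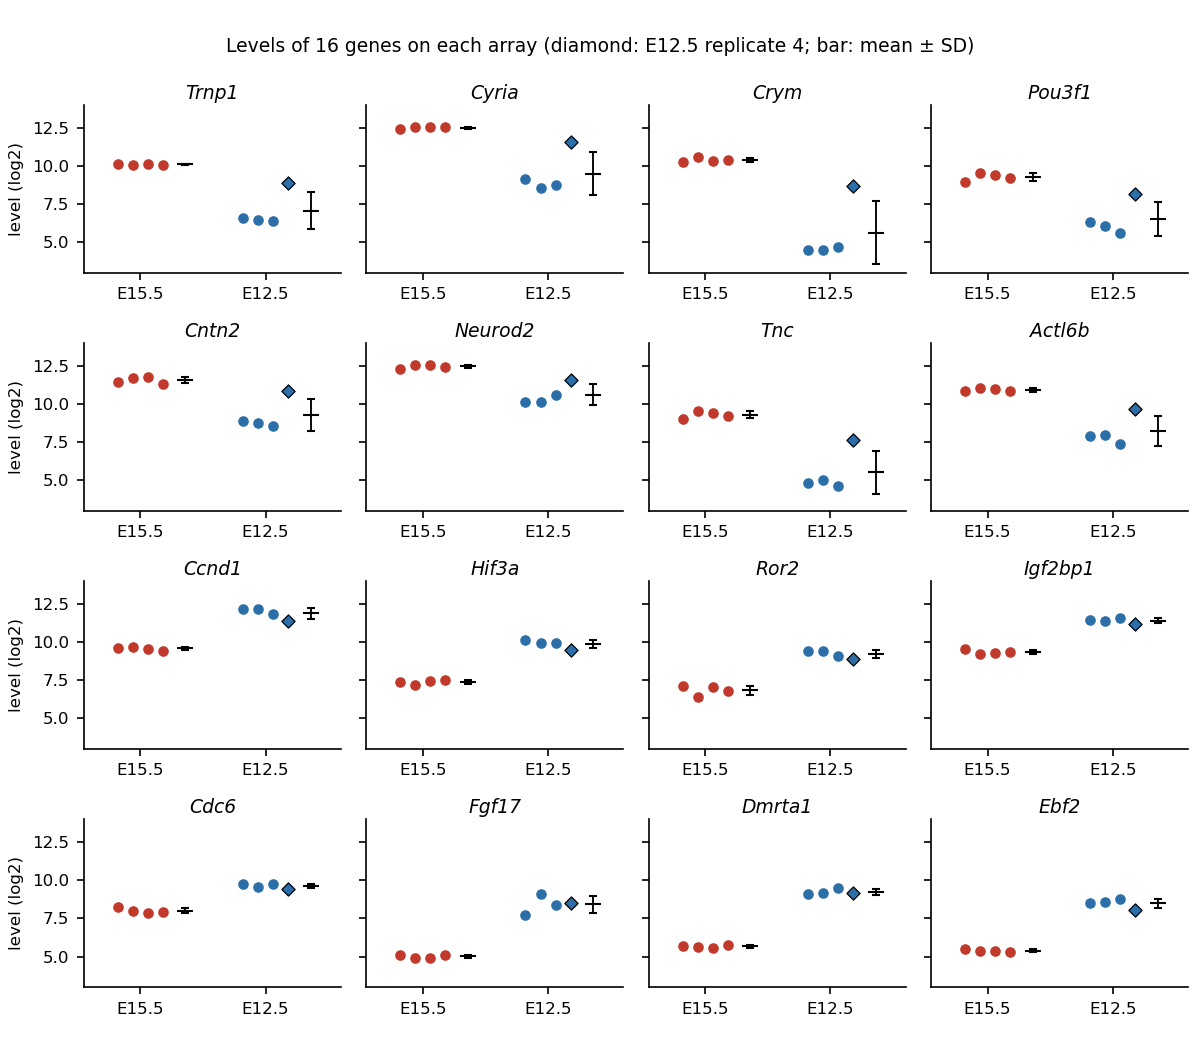
Levels (log2, y axis) of 16 genes on each array, E15.5 in red and E12.5 in blue, with E12.5 replicate 4 as an outlined diamond and the mean ± SD of the 4 arrays as a bar. In Trnp1, Crym and Tnc this array lies well above the other E12.5 arrays, and in Fgf17 and Dmrta1 it lies among them.

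Transcripts of the cell division machinery were lower at E15.5 almost without exception. By the adjusted p alone, at the same threshold, 24.8% of all genes passed as higher and 23.3% as lower, or 25.4% and 25.7% without E12.5 replicate 4. On this count 31 of 32 tested genes of DNA replication and 27 of 28 of mitosis fell and 0 rose. At 2-fold these were 23 and 18 genes. The median log2 fold changes were -1.10 and -1.06, against -0.03 over all genes, and -1.19 and -1.15 without E12.5 replicate 4. The largest falls in replication were those of the licensing factors that load the helicase. Cdt1 was 9.58, 8.99, 9.17 and 9.38 at E15.5 and 11.09, 11.10, 10.83 and 10.63 at E12.5 (3.10-fold, SE of the log2 fold change 0.13, adjusted p = 1.62e-06). Cdc6 was 8.23, 8.01, 7.87 and 7.93 at E15.5 and 9.73, 9.57, 9.76 and 9.46 at E12.5 (3.07-fold, SE 0.10, adjusted p = 2.81e-07). The sliding clamp Pcna fell 2.99-fold, and the helicase subunits Mcm5 and Mcm6 fell 2.48-fold and 2.04-fold. In mitosis, Aspm, a spindle pole protein whose loss causes microcephaly, was 7.72, 7.72, 7.75 and 7.89 at E15.5 and 8.97, 9.18, 9.54 and 9.15 at E12.5 (2.72-fold, SE of the log2 fold change 0.15, adjusted p = 6.67e-06). Ube2c, the conjugating enzyme of the anaphase-promoting complex, fell 2.98-fold, Incenp, of the chromosomal passenger complex, 2.41-fold, and Top2a, which untangles sister chromatids, 2.35-fold. In each of these genes every E15.5 array was below every E12.5 array. The members that did not pass were Gins1 (log2 fold change -0.60, SE 0.21, adjusted p = 0.026), whose value of 8.53 on E12.5 replicate 3 lay below the 9.11 to 9.71 of the other E12.5 arrays, and Ccna2 (-0.73, SE 0.23, adjusted p = 0.0137).

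Promoters of genes that fell together are shown because E2F and CCAAT-binding factors are known regulators of cell cycle genes. The 250 bases before the gene start were taken from RefSeq (build GRCm38.p6), and they are printed on the gene's strand with the matches of 1 motif in capitals, where overlapping matches form 1 run. For Mcm5 and Mcm6 these are E2F motifs (TTTGGCGC, TTTCCCGC, TTTCGCGC or TTTGCCGC), and for Top2a and Aspm CCAAT boxes (CCAAT), all searched on both strands.
Mcm5 (chr8:75109259-75109508, plus strand): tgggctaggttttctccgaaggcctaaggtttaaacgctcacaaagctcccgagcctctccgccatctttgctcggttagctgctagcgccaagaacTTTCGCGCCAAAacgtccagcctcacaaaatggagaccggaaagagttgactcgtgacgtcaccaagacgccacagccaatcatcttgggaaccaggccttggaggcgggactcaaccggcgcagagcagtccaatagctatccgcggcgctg
Mcm6 (chr1:128359706-128359955, minus strand): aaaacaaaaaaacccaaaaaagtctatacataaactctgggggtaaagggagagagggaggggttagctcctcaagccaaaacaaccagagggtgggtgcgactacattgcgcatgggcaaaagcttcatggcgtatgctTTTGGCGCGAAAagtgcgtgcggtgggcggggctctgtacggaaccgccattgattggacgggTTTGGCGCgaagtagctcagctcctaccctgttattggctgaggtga
Top2a (chr11:99024190-99024439, minus strand): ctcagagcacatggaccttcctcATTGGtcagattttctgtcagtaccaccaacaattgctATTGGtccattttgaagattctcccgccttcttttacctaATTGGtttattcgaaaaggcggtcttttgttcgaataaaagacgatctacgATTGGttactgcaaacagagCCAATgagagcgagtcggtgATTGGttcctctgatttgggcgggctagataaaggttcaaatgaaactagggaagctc
Aspm (chr1:139454523-139454772, plus strand): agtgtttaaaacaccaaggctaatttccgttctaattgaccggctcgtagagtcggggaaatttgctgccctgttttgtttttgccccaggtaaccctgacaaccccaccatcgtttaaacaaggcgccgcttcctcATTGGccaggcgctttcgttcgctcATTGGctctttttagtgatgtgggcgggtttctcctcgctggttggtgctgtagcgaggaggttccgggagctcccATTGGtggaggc
The promoters of Mcm6 and Top2a hold 2 and 6 such runs. Of the 23 replication genes called lower, 20 had a promoter in the RefSeq table, and 5 of these genes (25%) held an E2F motif. A gene was counted if any of its promoters held the motif. The share was 4.07% of the tested genes with a promoter, and 1.86% of all 32851 promoters counted singly. Of the 18 mitotic genes called lower, 14 had a promoter, and 1 of these genes (7.14%) held an E2F motif and 10 (71.4%) a CCAAT box. A CCAAT box was found in 11 of the 20 replication genes (55%) and in 5 of 16 presynaptic genes called higher (31.2%). It was found in 41.5% of the tested genes with a promoter, and in 33.8% of all promoters counted singly. Further motifs were searched in the same way. CHR (TTTGAA or TTCGAA) was found in 28.6% of the mitotic, 10% of the replication, 25% of the presynaptic and 14.6% of the tested genes. The CAGATG E-box was found in 21.4%, 5%, 6.25% and 11.7% of these. All matches describe the letters of the windows and not the binding of a factor.

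Cyclins and inhibitors of the G1 phase did not move as a block, with 6 of 13 tested members higher and 5 lower. All D cyclins, the partners of Cdk4 that drive entry into the cycle, fell. Ccnd1 was 9.64, 9.69, 9.58 and 9.43 at E15.5 and 12.17, 12.15, 11.87 and 11.41 at E12.5 (4.97-fold, SE of the log2 fold change 0.14, adjusted p = 3.29e-07), whereas Ccnd3 fell 2.31-fold and Ccnd2 2.15-fold. Cdk4 itself did not pass (log2 fold change -0.22, SE 0.10, adjusted p = 0.0668). The inhibitors Cdkn1b (p27) and Cdkn1c (p57) rose 1.71-fold and 1.67-fold, with adjusted p of 5.17e-05 and 1.38e-04, while Cdkn1a (p21) fell 2.12-fold. Cdkn1b was 8.05 to 8.11 at E15.5 and 7.27 to 7.37 at E12.5, so that here E12.5 replicate 4 (7.33) lay among the other arrays of its stage. Cdk5r1, the p35 activator of the neuronal kinase Cdk5, rose 2.68-fold.

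Of 19 tested genes of apical progenitors, the radial glia at the ventricle, 12 fell and 3 rose (median log2 fold change -0.65, or -0.61 with undetected genes at their bounds). Sox2, a factor that maintains progenitors, was 9.06, 8.44, 8.76 and 8.85 at E15.5 and 9.92, 9.82, 9.95 and 9.49 at E12.5 (2.02-fold lower, SE of the log2 fold change 0.13, adjusted p = 2.90e-05). The membrane protein Prom1 fell 2.27-fold, and nestin (Nes) 1.57-fold. The log2 fold change of Pax6 was -1.05 (SE 0.28, adjusted p = 0.00512), but its probe was detected on only 1 E15.5 array and it no longer passed without E12.5 replicate 4 (-0.87). Vimentin (Vim), an intermediate filament of radial glia, did not pass (log2 fold change -0.08, SE 0.08, adjusted p = 0.427). The members that rose included Mfge8 (2.20-fold), a secreted glycoprotein, and the glutamate transporter Slc1a3 (2.06-fold), whose levels were 11.74 to 11.78 at E15.5 and 10.41 to 10.95 at E12.5. The Notch pathway, which keeps progenitors undifferentiated, had 11 of 16 tested members lower and 1 higher. The falls of Notch1, Hey1, Hes1 and Hes5 are counted both here and among apical progenitors. The pathway's receptor Notch3 fell 3.52-fold, its effectors Hes5 and Hes1 2.38-fold and 1.98-fold, and its ligand Dll1 2.12-fold, with adjusted p of 3.36e-06, 2.75e-06, 2.75e-05 and 8.71e-06. The pathway member that rose was Dner, a ligand expressed by neurons (1.97-fold).

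Genes known for their decline as progenitors age were largely lower, with 8 of 10 tested members lower and 7 of them by at least 2-fold. Lists share members, and the falls of Ccnd1, Ccnd2, Dnmt3b and Hmga2 are also counted in other lists. Igf2bp1, an RNA-binding protein of early development, was 9.54, 9.26, 9.29 and 9.38 at E15.5 and 11.43, 11.42, 11.59 and 11.21 at E12.5 (4.14-fold, SE of the log2 fold change 0.10, adjusted p = 9.76e-08). Its relative Igf2bp3 fell 2.06-fold, Sall4, a zinc finger factor of pluripotent cells, 4.34-fold, and the DNA methyltransferase Dnmt3b 2.44-fold. Hmga2 and Lin28b, which are linked through the microRNA let-7, were detected on 0 E15.5 arrays and on 2 E12.5 arrays each. Hmga2 was at least 1.10-fold lower at E15.5 (adjusted p = 1.80e-04), and the signal of Lin28b allowed no fold. Genes of cortical patterning showed the same direction, with 11 of 13 lower and 9 by at least 2-fold (median log2 fold change -1.20). Dmrta1, a DM domain factor of the medial cortex, was 5.71, 5.64, 5.54 and 5.77 at E15.5 and 9.08, 9.15, 9.49 and 9.17 at E12.5 (log2 fold change -3.55, SE 0.10, adjusted p = 3.29e-10). E12.5 replicate 4 lay within the range of the other E12.5 arrays for this gene, which was detected on 1 E15.5 array. Sp8, a rostral patterning factor, fell 3.45-fold, Dmrt3 3.11-fold and Sp5 3.05-fold. Emx1, a marker of the whole dorsal telencephalon, fell 1.24-fold (adjusted p = 0.005), and its levels of 8.80 to 8.88 at E15.5 and 8.97 to 9.28 at E12.5 show its presence on all 8 arrays.

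Wnt ligands and effectors were largely lower at E15.5, with 16 of 22 tested members falling, 9 by at least 2-fold, and 1 rising. Of the ligands, Wnt3a, which comes from the hem, was 8.02, 7.69, 7.70 and 7.91 at E15.5 and 9.63, 9.84, 9.37 and 9.24 at E12.5 (3.23-fold, SE of the log2 fold change 0.13, adjusted p = 1.01e-06). The agonist Rspo2 fell 3.65-fold and Rspo1, detected on no E15.5 array, at least 2.53-fold. Among effectors and targets, the transcription factor Tcf7l1 fell 3.41-fold, Lef1 2.54-fold and Axin2, a feedback inhibitor, 2.27-fold. The secreted antagonist Sfrp1 fell 2.75-fold, with 10.61 to 10.73 at E15.5 and 11.84 to 12.46 at E12.5. Wnt7b, a ligand made by neurons of the deep layers, was the member that rose (log2 fold change 0.53, SE 0.15, adjusted p = 0.00922), and under several of the alternative settings it no longer passed.

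In the list of bone morphogenetic protein and Id genes, 8 of 13 tested members fell and 3 rose, and the falls include Ttr, a choroid plexus transcript that is not part of the pathway. The share that rose was near the 24.8% of all genes. Bmp4 was below detection on all E15.5 arrays and 7.13, 7.15, 7.43 and 5.95 at E12.5, at least 2.21-fold lower at E15.5 (adjusted p = 1.07e-05), and Bmp7, detected on 1 E15.5 array, fell 3.48-fold. The hem and roof plate factors Msx1 and Lmx1a fell 3.76-fold and 3.38-fold. Of the Id proteins, which are targets of this pathway that hold back proneural factors, Id4 and Id3 fell, Id2 rose and Id1 did not pass (log2 fold change -0.05, SE 0.12, adjusted p = 0.710). The fall of Id3 was 1.70-fold (adjusted p = 2.12e-05). Id4 was 10.77 to 11.09 at E15.5 and 12.33 to 12.71 at E12.5 (3.07-fold, SE of the log2 fold change 0.12, adjusted p = 1.03e-06). Id2 was 10.75, 11.56, 10.96 and 10.62 at E15.5 and 8.50, 8.63, 8.94 and 10.40 at E12.5 (3.61-fold, SE 0.34, adjusted p = 4.33e-04). For Id2, E12.5 replicate 4 lay just below the lowest E15.5 array, and without it the log2 fold change was 2.28. Fibroblast growth factors and their targets were split, with 4 of 15 higher, a share near the 24.8% of all genes, and 7 lower. Fgf17, a ligand of the rostral signalling centre, was below detection at E15.5 and 7.72, 9.12, 8.37 and 8.50 at E12.5, at least 6.29-fold lower at E15.5 (adjusted p = 3.05e-07). Il17rd, an inhibitor of the pathway, fell 3.09-fold and the receptor Fgfr3 2.29-fold, while the feedback phosphatase Dusp6 rose 1.57-fold.

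**Figure D3:**
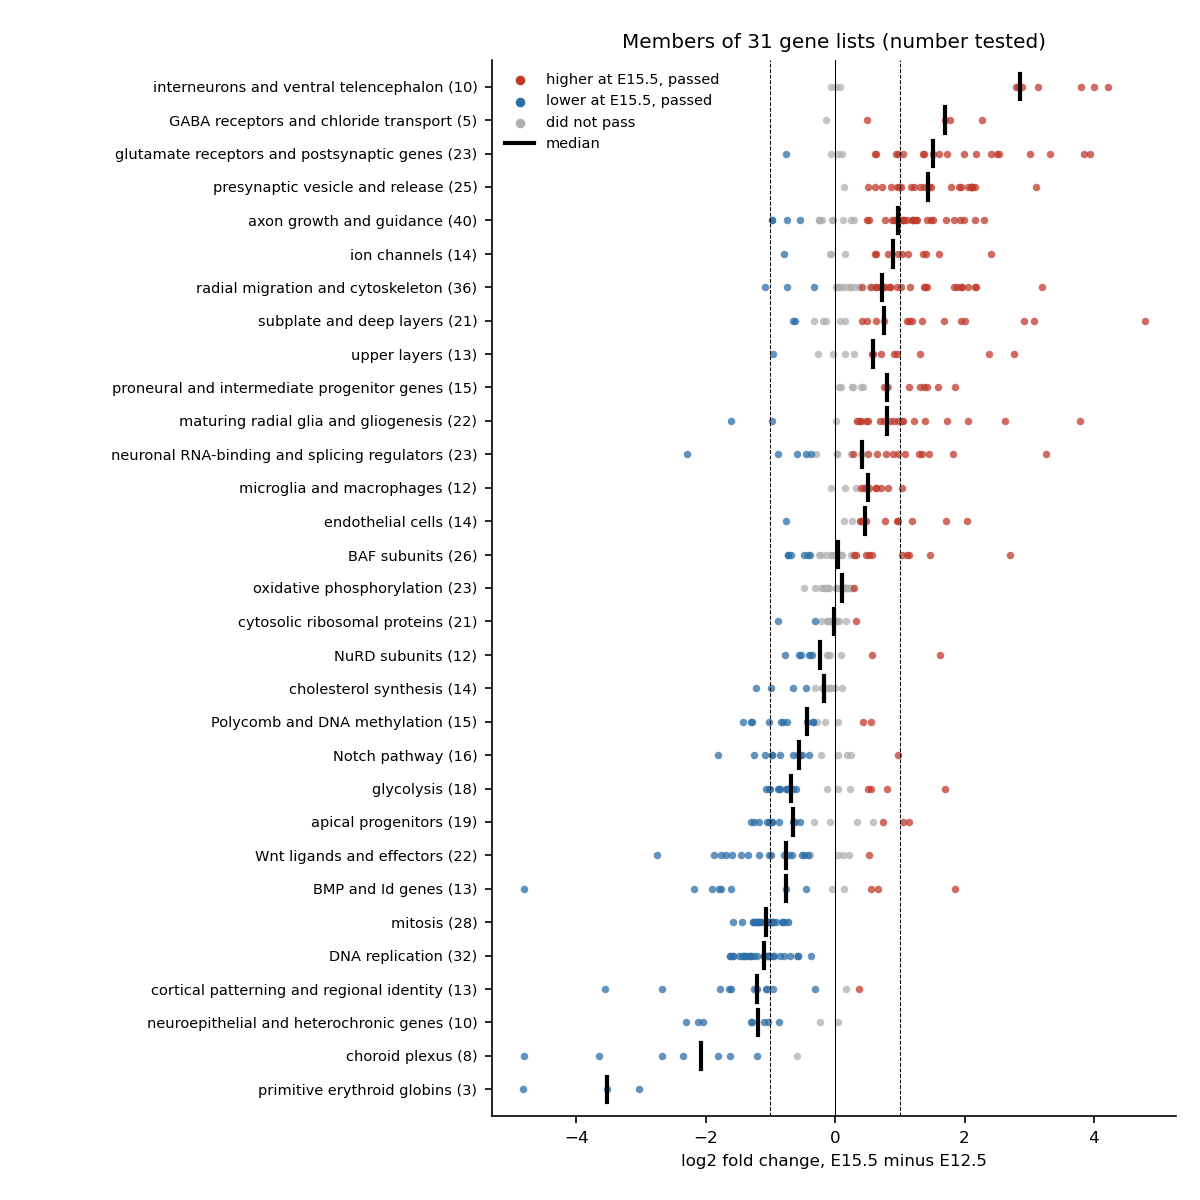
Log2 fold changes (E15.5 minus E12.5, x axis) of the tested members of 31 gene lists, with members that passed an adjusted p under 0.01 in red (higher) or blue (lower), the others in grey and the median of each list as a black bar; the values of genes undetected at 1 stage are fitted ones. All members of DNA replication and mitosis lie left of 0, and the medians run from 2.86 for ventral telencephalon to -3.53 for the embryonic globins.

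Of 15 tested proneural and intermediate progenitor genes, 8 rose and 0 fell. Neurod2, which acts in newborn neurons, was 12.31, 12.55, 12.55 and 12.46 at E15.5 and 10.16, 10.14, 10.57 and 11.58 at E12.5 (3.62-fold, SE of the log2 fold change 0.24, adjusted p = 2.90e-05). Neurod4 rose 3.0-fold and Insm1, a zinc finger factor that promotes the formation of basal progenitors, 2.60-fold. Neurog2, the proneural factor of cortical radial glia, had nearly equal levels of 11.46 to 11.77 at E15.5 and 11.45 to 11.53 at E12.5 (log2 fold change 0.09, SE 0.09, adjusted p = 0.416). Eomes (Tbr2), which defines intermediate progenitors, did not pass either (log2 fold change 0.44, SE 0.22, adjusted p = 0.107). Its levels were 10.06, 10.57, 10.12 and 10.12 at E15.5 and 9.51, 9.55, 9.82 and 10.25 at E12.5, and the stages overlapped through E12.5 replicate 4. Without this array its log2 fold change was 0.59, which passed only in the fit of the stages' own arrays.

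Genes of migrating and differentiating neurons rose in large numbers. Of 36 tested genes of radial migration and the cytoskeleton, 23 rose and 3 fell. Stmn2, which destabilizes microtubules in growing axons, was 12.80, 13.16, 13.03 and 13.09 at E15.5 and 10.54, 10.52, 10.30 and 11.98 at E12.5 (4.54-fold, SE of the log2 fold change 0.27, adjusted p = 2.17e-05). Doublecortin (Dcx), a microtubule protein of migrating neurons, was 11.81, 11.71, 11.97 and 12.09 at E15.5 and 9.80, 9.52, 9.45 and 10.94 at E12.5 (3.91-fold, SE 0.25, adjusted p = 2.42e-05), and its relative Dclk1 rose 3.71-fold. The tubulins differed. Tubb3, the class III beta-tubulin of neurons, rose 1.80-fold (adjusted p = 7.18e-04), whereas Tubb2b had 14.49 to 14.60 at E15.5 and 14.47 to 14.56 at E12.5 (log2 fold change 0.04, SE 0.07, adjusted p = 0.628), and with its probes averaged it was higher at E15.5 (0.80). The members that fell included Nde1 (2.11-fold), needed for the division of progenitors, and the actin crosslinker Flna (1.68-fold). For axon growth and guidance, 26 of 40 rose and 4 fell, and at 2-fold 19 rose and 0 fell. Cntn2 (TAG-1), an adhesion molecule of early cortical axons, was 11.45, 11.72, 11.80 and 11.35 at E15.5 and 8.91, 8.74, 8.59 and 10.87 at E12.5 (4.92-fold, SE of the log2 fold change 0.38, adjusted p = 1.67e-04). The semaphorin receptor Nrp1 rose 4.47-fold, the semaphorin Sema7a 3.98-fold, the growth cone protein Gap43 3.57-fold and the Slit receptor Robo1 3.29-fold. The Slit ligand Slit2 fell 1.98-fold and the ephrin Efna5 1.68-fold.

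Markers of subplate and deep layers rose in 14 of 21 cases, 10 of them by at least 2-fold, and fell in 2. Crym, a thyroid hormone-binding protein of deep-layer neurons, was 10.26, 10.59, 10.35 and 10.41 at E15.5 and 4.52, 4.52, 4.71 and 8.71 at E12.5 (log2 fold change 4.79, SE 0.70, adjusted p = 6.99e-05), and was detected at E12.5 on replicate 4 alone. Without that array its log2 fold change was 5.83. Ppp1r1b and Mc4r had the same pattern, with log2 fold changes of 3.07 and 2.91, and 3.70 and 3.52 without it. The transcription factors that specify these layers changed less. Sox5 rose 3.21-fold, Bcl11b (Ctip2) 2.20-fold, Tbr1 1.55-fold and Fezf2 1.40-fold, with adjusted p of 1.92e-05, 7.11e-05, 3.48e-04 and 9.98e-05. Fezf2 was 13.06 to 13.18 at E15.5 and already 12.55 to 12.70 at E12.5. The subplate gene Nr4a2 fell 1.54-fold. Of 13 tested upper-layer genes, 8 rose and 1 fell, but the factors Cux1 and Cux2 did not pass, with log2 fold changes of -0.27 (SE 0.15, adjusted p = 0.146) and 0.28 (SE 0.15, adjusted p = 0.110). The rises were led by Pou3f1 (6.78-fold) and Mef2c (5.18-fold), neuronal transcription factors. Pou3f1 was 8.98, 9.56, 9.39 and 9.24 at E15.5 and 6.29, 6.05, 5.62 and 8.16 at E12.5. Required to be detected on at least 4 of the 8 arrays, 5 upper-layer genes were higher in place of 8.

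Genes of Cajal-Retzius cells, the first neurons of the marginal zone, went both ways, with 4 of 10 higher and 4 lower. Reln, the glycoprotein that they secrete, was 12.04, 11.92, 12.05 and 11.79 at E15.5 and 10.44, 10.29, 10.25 and 11.31 at E12.5 (2.61-fold higher, SE of the log2 fold change 0.19, adjusted p = 3.73e-05), and Calb2 (calretinin) rose 2.21-fold. Ebf2, a factor of these cells and of their precursors, was below detection on all E15.5 arrays and 8.51, 8.55, 8.77 and 8.07 at E12.5, at least 6.51-fold lower at E15.5. Zic1 fell 2.24-fold and Ebf3 1.48-fold.

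Synaptic genes had the most uniform rise of all lists of more than 20 tested members. Of 25 presynaptic genes, 24 rose and 0 fell (median log2 fold change 1.44, or 1.37 with undetected genes at their bounds, and 1.54 without E12.5 replicate 4). Syt1, the calcium sensor of vesicle release, was 9.83, 10.29, 10.09 and 10.23 at E15.5 and 7.84, 7.60, 7.46 and 8.91 at E12.5 (4.46-fold, SE of the log2 fold change 0.24, adjusted p = 1.02e-05). The vesicle protein Sv2a rose 4.34-fold, the small GTPase Rab3a 4.33-fold and the SNARE protein Vamp2 2.72-fold. Its relative Vamp1 did not pass (log2 fold change 0.14, SE 0.13, adjusted p = 0.368). Among glutamate receptors and postsynaptic genes, 23 of 31 on the array were tested, and of these 19 rose and 1 fell. As in the other lists, members that none of the 8 arrays detected were left out. Camk2b, a calcium-dependent kinase subunit, was 10.31, 10.69, 10.34 and 10.47 at E15.5 and 6.02, 6.02, 5.53 and 8.88 at E12.5 (log2 fold change 3.84, SE 0.53, adjusted p = 4.06e-05). The AMPA receptor subunit Gria1 was 8.93, 9.38, 9.22 and 9.48 at E15.5 and 5.18, 5.59, 5.02 and 7.94 at E12.5 (3.32, SE 0.47, adjusted p = 5.49e-05). Both were lowest on E12.5 replicates 1 to 3, and without replicate 4 their log2 fold changes were 4.60 and 4.0. The scaffold protein Dlgap1 had 3.94, and 4.73 without it. The NMDA receptor subunit Grin2b rose 3.97-fold and was detected at E12.5 on replicate 4 alone. Camk2a was the member that fell, by at least 1.48-fold, and was detected on no E15.5 array.

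Of 5 tested genes of inhibitory transmission, 4 rose, with the glycine receptor subunit Glra2 at 4.81-fold and the GABA receptor subunits Gabrb1 and Gabbr1 at 3.41-fold and 3.24-fold. The chloride importer Slc12a2 did not pass (log2 fold change -0.15, SE 0.09, adjusted p = 0.183). Ion channels rose in 10 of 14 cases. The sodium channel subunit Scn3b was 7.96, 8.14, 8.13 and 7.87 at E15.5 and 5.24, 5.26, 5.32 and 6.65 at E12.5 (5.31-fold, SE of the log2 fold change 0.25, adjusted p = 5.88e-06). The potassium channel Kcnc1 rose 3.04-fold, and Cacna1g, a T-type calcium channel, fell 1.74-fold. Regulators of splicing and other RNA-binding proteins had 12 of 23 members higher and 5 lower, and with median scaling 2 were lower in place of 5. The share that fell was near the 23.3% of all genes. Celf4 rose 2.73-fold, Rbfox3 (NeuN) 2.52-fold and Elavl3 2.11-fold, all neuronal proteins. Ptbp1, the repressor of neuronal exons in progenitors, was 11.60, 11.26, 11.37 and 11.37 at E15.5 and 12.48, 12.39, 12.11 and 12.14 at E12.5 (1.84-fold lower, SE of the log2 fold change 0.12, adjusted p = 3.26e-05), whereas its neuronal relative Ptbp2 did not pass (log2 fold change 0.25, SE 0.12, adjusted p = 0.104). Msi1 (Musashi-1), an RNA-binding protein of neural progenitors, was at least 3.17-fold lower and detected on no E15.5 array.

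Chromatin complexes with alternative subunits were counted against all genes, of which 24.8% rose and 23.3% fell. Of 26 tested BAF subunits, 10 rose and 6 fell, and the share that fell was near that of all genes. Actl6b (BAF53b), which replaces Actl6a as neurons form, was 10.84, 11.06, 10.98 and 10.83 at E15.5 and 7.89, 8.0, 7.37 and 9.64 at E12.5 (log2 fold change 2.70, SE 0.34, adjusted p = 2.26e-05). Actl6a was 10.70, 10.86, 10.60 and 10.72 at E15.5 and 11.22, 11.33, 11.71 and 11.37 at E12.5 (-0.69, SE 0.14, adjusted p = 0.00111). Of the other exchanged pairs, Ss18l1 (CREST) rose 2.76-fold with Ss18 at -0.25 (adjusted p = 0.0508), and Dpf1 rose 2.06-fold with Phf10 1.30-fold lower. The ATPase Smarca2 rose 2.15-fold, and Smarca4 was nearly level (log2 fold change 0.01, SE 0.09, adjusted p = 0.930). With median scaling 2 BAF subunits were lower in place of 6. Of 12 tested NuRD subunits, 2 rose, a smaller share than among all genes, and 5 fell. The ATPase Chd5 was 6.58, 7.28, 7.20 and 7.32 at E15.5 and 5.23, 5.37, 5.20 and 6.12 at E12.5 (3.07-fold, SE of the log2 fold change 0.21, adjusted p = 2.93e-05), and Chd3 rose 1.48-fold (adjusted p = 6.76e-04). Chd4 was 10.17, 9.78, 10.13 and 10.08 at E15.5 and 10.49, 10.46, 10.59 and 10.25 at E12.5 (log2 fold change -0.41, SE 0.12, adjusted p = 0.00891). This fall was near the threshold and did not pass with median scaling or with the 8 arrays fitted alone, as for Mta1 and Mbd3, so that 2 NuRD subunits, Mbd2 and Rbbp7, were lower in those fits. Without E12.5 replicate 4, in the fit of all 3 stages, Chd4 did pass (log2 fold change -0.47, adjusted p = 0.00376). Mta1 and Mbd3 passed there as well, and 6 NuRD subunits were lower in place of 5. Mbd2 fell 1.71-fold and Rbbp7 1.48-fold. The deacetylase Hdac2 was nearly level, at 12.90 to 13.11 at E15.5 and 12.87 to 13.04 at E12.5 (log2 fold change 0.09, SE 0.08, adjusted p = 0.408). Polycomb and DNA methylation genes were lower in 10 of 15 cases and higher in 2, with 6 lower under median scaling. The Polycomb subunits Cbx2 and Eed fell 2.47-fold and 2.04-fold, and Uhrf1, which guides maintenance methylation, 2.69-fold, while the Polycomb genes Bmi1 and Cbx8 rose 1.46-fold and 1.35-fold.

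Glycolytic genes were lower in 11 of 18 cases and higher in 4 (median log2 fold change -0.69). Pgk1 was 11.95, 11.92, 11.84 and 11.90 at E15.5 and 12.80, 12.86, 13.27 and 12.75 at E12.5 (2.03-fold lower, SE of the log2 fold change 0.11, adjusted p = 6.30e-06). Pdk1, which diverts pyruvate from mitochondria, fell 2.09-fold, and Pfkl, the liver isoform of phosphofructokinase, 2.02-fold. The members that rose included Eno2, the neuronal enolase (3.26-fold), and the hexokinase Hk1 (1.75-fold). In contrast, 1 of 23 genes of oxidative phosphorylation and 3 of 21 cytosolic ribosomal proteins (1 higher, 2 lower) passed the test, with median log2 fold changes of 0.10 and -0.02. Atp5b was 14.24 to 14.38 at E15.5 and 13.98 to 14.31 at E12.5, and Rplp1 14.70 to 14.79 at E15.5 and 14.63 to 14.79 at E12.5. Of 14 cholesterol synthesis genes, 4 fell and 0 rose, and among 14 imprinted genes 3 rose and 5 fell. The cholesterol falls and the imprinted rises were near the shares of all genes (23.3% lower, 24.8% higher). Mest was 10.39, 10.63, 10.28 and 10.17 at E15.5 and 11.47, 11.85, 12.21 and 11.85 at E12.5 (2.79-fold lower, SE of the log2 fold change 0.15, adjusted p = 4.39e-06), and the growth regulator Grb10 fell 1.98-fold.

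Genes of maturing radial glia and of gliogenesis rose in 18 of 22 cases and fell in 2. Tnc (tenascin C), an extracellular matrix protein, was 9.05, 9.54, 9.43 and 9.23 at E15.5 and 4.82, 5.02, 4.65 and 7.63 at E12.5 (log2 fold change 3.78, SE 0.49, adjusted p = 2.53e-05, and 4.50 without E12.5 replicate 4). The proteoglycan Bcan was 8.29, 8.12, 8.15 and 8.15 at E15.5 and 4.71, 4.70, 5.62 and 7.16 at E12.5 (2.63, SE 0.40, adjusted p = 8.84e-05). Both were detected at E12.5 on replicate 4 alone. The transcription factors Zbtb20 and Nfix rose 3.30-fold and 2.62-fold, and Olig1, which also marks oligodendrocyte precursors, 4.16-fold. Of the 4 tested genes of the oligodendrocyte lineage Olig1 alone rose, whereas Mbp fell 1.48-fold (adjusted p = 1.20e-04), Pdgfra, detected on no E15.5 array, was at least 1.07-fold lower (adjusted p = 0.00844, not passed under most alternatives), and Cnp did not pass. Fabp7 (BLBP), a fatty acid-binding protein of radial glia, varied within each stage, with 7.71, 9.20, 7.49 and 7.96 at E15.5 and 6.90, 7.26, 8.29 and 8.55 at E12.5, and did not pass (log2 fold change 0.34, SE 0.45, adjusted p = 0.540). The members that fell were Id4 and the receptor Ntrk2 (1.97-fold), for which another probe was higher at E15.5 (log2 fold change 1.71).

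Markers of cells that enter the cortex or surround it were examined next. Of 10 tested genes of interneurons and of the ventral telencephalon, from which GABAergic cells migrate into the cortex, 7 rose and 0 fell. The array held 20 genes of this list, and those not detected were not tested. The genes that rose passed the detection filter through the E15.5 arrays and E12.5 replicate 4, so that the filter itself favoured a rise. Sst (somatostatin) was 9.41, 10.02, 9.90 and 9.39 at E15.5 and 4.56, 4.52, 4.54 and 8.22 at E12.5 (log2 fold change 4.22, SE 0.64, adjusted p = 8.59e-05, and 5.15 without E12.5 replicate 4). The homeobox gene Dlx1 was 9.11, 9.67, 9.50 and 9.61 at E15.5 and 4.63, 4.58, 4.66 and 8.02 at E12.5 (4.0, SE 0.58, adjusted p = 6.75e-05, and 4.86 without it). The GABA transporter Slc32a1 and the synthetic enzyme Gad1 had 3.80 and 3.14, and 4.60 and 3.75 without it. All 7 genes were detected at E12.5 on replicate 4 alone, and the summed level of the list was 11.42 to 12.02 at E15.5, 10.47 on that array and 8.20 to 8.38 on E12.5 replicates 1 to 3. Lhx8, a marker of the medial ganglionic eminence itself, was detected on 0 E15.5 arrays and 1 E12.5 array. How far these cells contribute to the rises of synaptic genes was not tested.

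Choroid plexus genes were lower in 7 of 8 cases, but E15.5 replicate 4 stood apart. Ttr (transthyretin) was 7.12, 7.0, 7.08 and 13.42 at E15.5 and 13.83, 13.64, 13.97 and 12.43 at E12.5 (log2 fold change -4.81, SE 1.14, adjusted p = 0.00273), and Clic6 was 5.42, 5.24, 5.74 and 8.50 at E15.5 and 10.35, 9.95, 10.35 and 8.85 at E12.5. The summed level of the list was 13.55 on E15.5 replicate 4, within the 12.75 to 14.25 of E12.5, and 8.82 to 8.99 on the other E15.5 arrays. On E15.5 replicate 4 and at E12.5 this sum was led by Ttr. Clic6 on E15.5 replicate 4, at 8.50, was below all its E12.5 values. The sum thus does not place the other choroid plexus genes of that array at the E12.5 level. The fall of Ttr did not pass when E15.5 replicate 1, 2 or 3 was left out, and without E15.5 replicate 4 the log2 fold changes were -6.40 for Ttr and -4.39 for Clic6. Otx2 is a member of this list and moved with it among the E15.5 arrays, and the part of choroid plexus in the falls of Wnt and bone morphogenetic protein genes was not tested.

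Embryonic globins of primitive red cells fell in 3 of 3 cases, with Hbb-bh1 at least 18.9-fold lower (adjusted p = 8.35e-08), while the adult globin Hba-a1 rose 1.84-fold (14.32, 14.27, 14.38 and 14.46 at E15.5 and 13.52, 13.11, 13.50 and 13.80 at E12.5, adjusted p = 6.54e-05). Of the 7 tested genes of definitive red cells, 2 were higher and 2 lower, near the shares of all genes (24.8% higher, 23.3% lower). The falls were those of the transferrin receptor Tfrc (2.31-fold, adjusted p = 2.28e-05) and the anion exchanger Slc4a1 (1.88-fold, adjusted p = 1.97e-04). Of 14 endothelial genes, 9 rose and 1 fell. The tight junction protein Cldn5 was 9.30, 9.51, 9.33 and 9.29 at E15.5 and 7.30, 6.85, 7.02 and 8.12 at E12.5 (4.09-fold, SE of the log2 fold change 0.21, adjusted p = 5.44e-06), and Slco1c1, a thyroid hormone transporter of brain vessels, was at least 2.21-fold higher. The glucose transporter Slc2a1 fell 1.70-fold. The summed level of the endothelial list was 12.24 to 12.32 at E15.5 and 12.05 to 12.26 at E12.5, so that the stages overlapped. Such sums of linear levels are led by the strongest members, here Slc2a1, whose means were 10.25 at E15.5 and 11.01 at E12.5. The overlap thus does not show that the other endothelial genes were level. Pericyte genes were higher in 4 of 6 cases, with Vtn at 3.88-fold, but Notch3, which pericytes share with radial glia, fell 3.52-fold. The summed pericyte level was 9.27 to 9.40 at E15.5 and 9.41 to 10.03 at E12.5, where Notch3, with a mean of 9.15, led the sum. Of 12 microglial genes, 9 rose, of which C1qc changed most (2.05-fold). Without single arrays (E12.5 replicate 1 or 2, or E15.5 replicate 2, 3 or 4), 4 to 5 microglial genes passed in place of 9. The summed microglial level was 10.54 to 10.72 at E15.5 and 9.96 to 10.18 at E12.5. Genes of the thalamus and hypothalamus, which lie outside the cortex, were lower in 3 of 5 cases, with summed levels of 8.79 to 9.06 at E15.5 and 9.28 to 9.79 at E12.5.

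**Figure D4:**
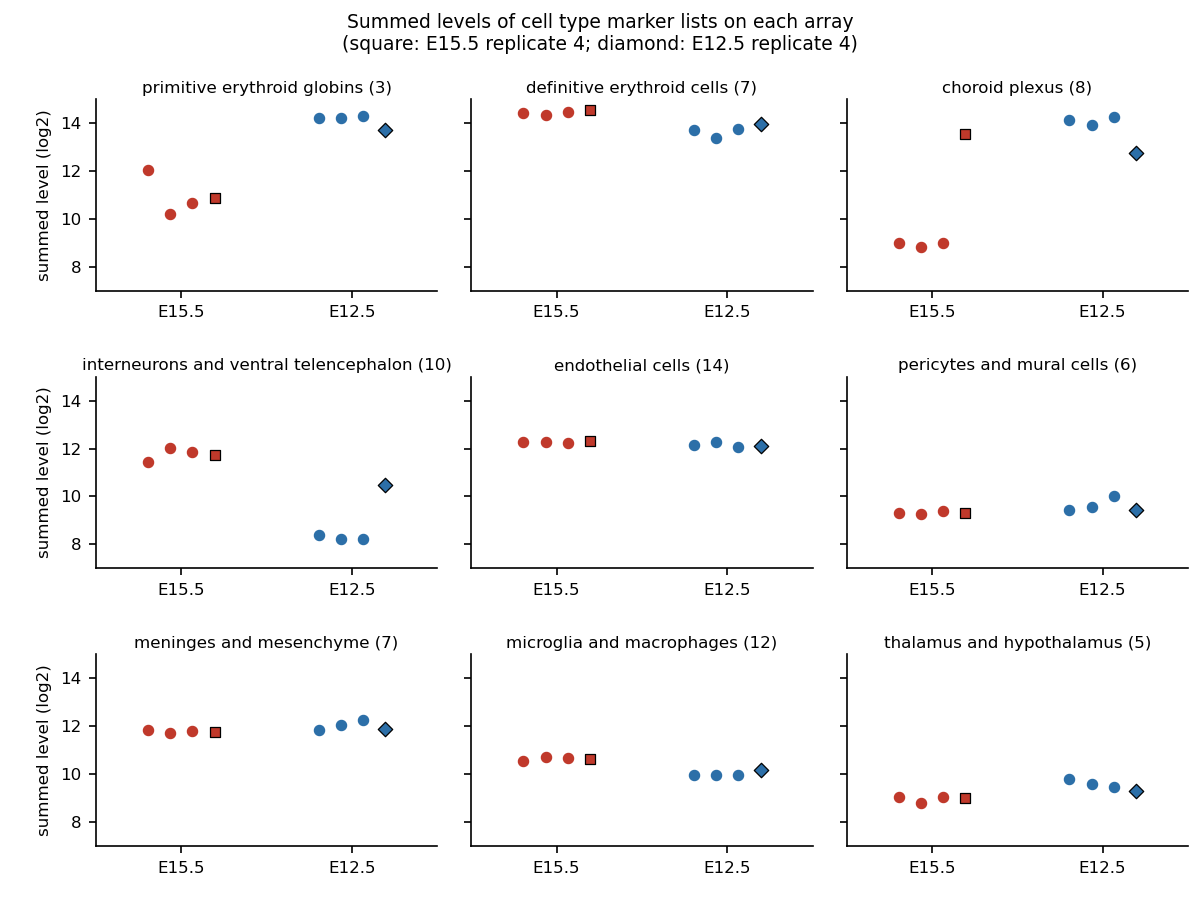
Summed levels (log2 of the sum of linear levels, y axis) of 9 marker lists on each array, E15.5 in red and E12.5 in blue, with E15.5 replicate 4 as a square and E12.5 replicate 4 as a diamond. The summed choroid plexus level is high on E15.5 replicate 4 alone among the E15.5 arrays and on all E12.5 arrays. The summed level of the ventral telencephalon is high on all E15.5 arrays and on E12.5 replicate 4.

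The position of E12.5 replicate 4 on the log2 scale differed between groups of genes. For 1349 called genes without overlap between the stages, this array lay at a median of 39.9% of the distance from the mean of the other E12.5 arrays to that of the E15.5 arrays on the log2 scale (quartiles 26.8% and 52.4%). It was the highest E12.5 array for 97.1% of the genes called higher and the lowest for 84.7% of those called lower. The median position was 67.0% for 7 called genes of the ventral telencephalon, 60.1% for 10 of the deep layers, 54.1% for 19 of axon guidance and 51.4% for 18 presynaptic ones. It was 26.4% for 18 called genes of mitosis, 24.1% for 23 of DNA replication and 17.7% for 9 of cortical patterning. Thus for neuronal genes the array lay about midway between the stages on this scale, and for patterning and proliferation genes closer to the other E12.5 arrays. On a log2 scale this position also depends on the direction and size of the change, so that it does not rank the groups. The calls that chose these genes also used this array. The genes of the ventral telencephalon had the highest of these medians, but all 7 were undetected on the other E12.5 arrays. Their position thus starts from background signals, and their part in the position of this array was not tested.

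**Figure D5:**
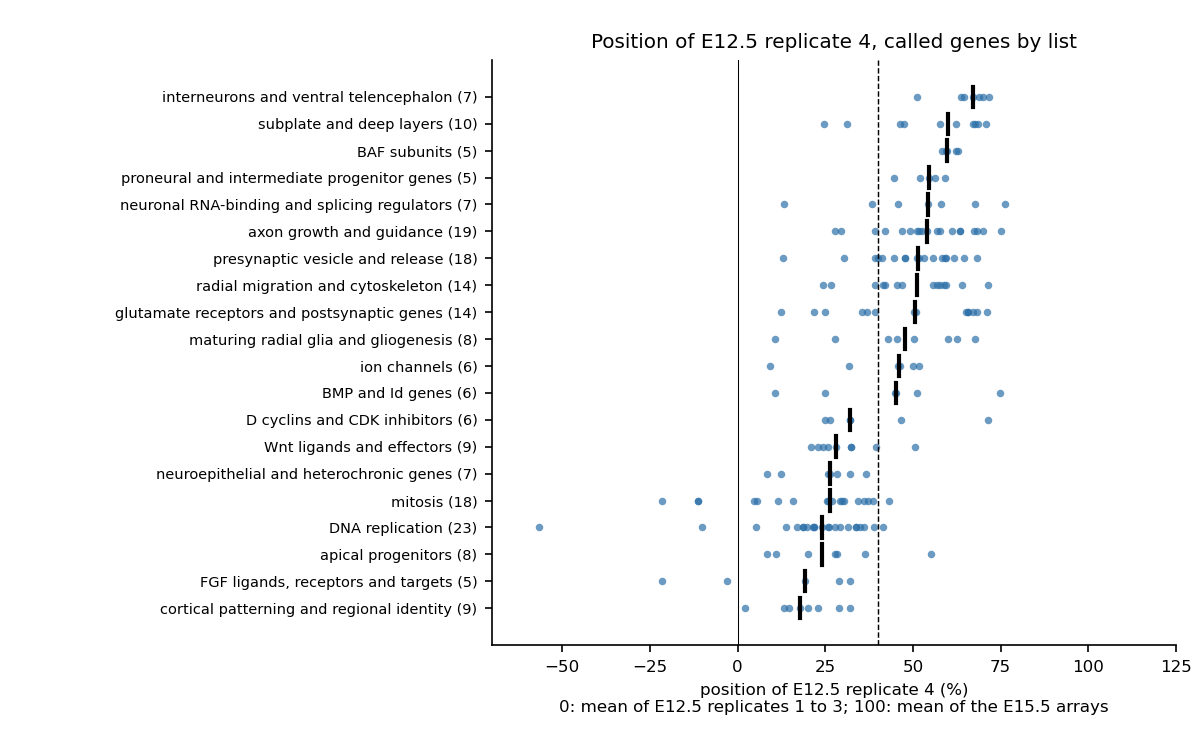
Position of E12.5 replicate 4 (x axis, in % of the distance from the mean of E12.5 replicates 1 to 3 to the mean of the E15.5 arrays, on the log2 scale) for called genes without overlap, by gene list; black bars are medians and the dashed line is the median over all 1349 such genes, 39.9%. Medians run from 17.7% for cortical patterning to 67.0% for ventral telencephalon.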

How the data were processed

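RNA of embryonic cortex was measured on mouse WG-6 BeadChips by the study. The authors deposited, for each probe and array, a signal intensity that was not normalized between arrays and a detection p-value, together with processed log2 values, which matched quantile-normalized log2 signals within 0.000492. The submitters' processing notes name lumi; its version was not given in the sources used here. Signals of the faintest detected probes were near 5.76 on the log2 scale, and the number of arrays limits the precision. Signals of all 12 arrays were background-corrected by normexp with an offset of 16 and quantile-normalized (neqc, limma 3.58.1 in R 4.3.3), and the stages were compared by limma's moderated test in a fit of all 3 stages, with Benjamini-Hochberg adjustment over 18323 probes. Adjusted p in the text comes from this fit. Probes were called at an adjusted p under 0.01 and at least 2-fold, the study's thresholds. Probes were named by the platform annotation, and a gene with several probes was represented by 1 of them. Members and the 42 gene lists were chosen with earlier results of these data known. The genes described came from the 12 largest rises and falls on all 8 arrays and the 4 largest bounds in either direction. As many as 5 passing and 2 other members per list were added, as were the genes the paper names. A further rule took the 5 genes, detected on all 8 arrays, whose fold change moved most without E12.5 replicate 4. Another 48 genes were chosen after their values were seen. Tested on simulated data of this comparison with 18323 probes, the fit recovered 82% of 1.5-fold and 100% of 2-fold changes. Alternatives were background correction, scaling, detection filter, variance model, arrays fitted, probe averaging, the methods' t-test, the pairing and each array left out.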

Additional observations from a re-analysis of the deposited data

Results flagged for a closer look

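Of 197 genes described, 380 stage groups were searched for an array far from the other 3, by Dixon's criterion, and 53 values met it, where chance gives about 1 in 20. Of these, 33 were on E12.5 replicate 4. A rule that chose genes for description used the shift of their fold change without this array. Other genes were chosen after their values were seen, so that these counts are not independent of the choice. Of the interneuron and deep-layer genes, the level on that array against the other E12.5 arrays was far higher for Crym (8.71 against 4.52 to 4.71), Dlx1 (8.02 against 4.58 to 4.66), Gad1 (6.95 against 4.45 to 4.66), Mc4r (6.89 against 4.48 to 4.60), Ppp1r1b (7.78 against 5.20 to 5.44), Slc32a1 (7.94 against 4.69 to 4.87), Sox5 (11.01 against 9.87 to 9.88) and Sst (8.22 against 4.52 to 4.56). Of the synaptic and channel genes, the level on that array against the other E12.5 arrays was far higher for Camk2b (8.88 against 5.53 to 6.02), Dlgap1 (8.14 against 4.74 to 5.19), Glra2 (9.49 against 7.97 to 8.05), Grin2b (5.99 against 5.07 to 5.15), Scn3b (6.65 against 5.24 to 5.32) and Sv2a (9.04 against 7.49 to 7.64). Of the genes of axons, migration and the cytoskeleton, the level on that array against the other E12.5 arrays was far higher for Cdh13 (8.23 against 5.98 to 6.32), Cdk5r1 (13.25 against 11.96 to 12.06), Cntn2 (10.87 against 8.59 to 8.91), Dclk1 (8.67 against 7.59 to 7.73), Nrp1 (10.72 against 9.26 to 9.31) and Stmn2 (11.98 against 10.30 to 10.54). The same held for Eef1a2 (9.09 against 6.75 to 6.97), Eif2s3y (9.35 against 9.04 to 9.06), Mef2c (8.59 against 7.05 to 7.25), Nfix (12.92 against 11.82 to 12), Olig1 (5.92 against 4.86 to 4.98), Sla (9.63 against 4.52 to 4.69), Smarca2 (11.28 against 10.47 to 10.57), Tnc (7.63 against 4.65 to 5.02), Trnp1 (8.89 against 6.36 to 6.59) and Zbtb20 (8.51 against 7.44 to 7.58). It was the lowest E12.5 array for Ccnd3 (10.47 against 11.09 to 11.12), Efna5 (8.74 against 9.14 to 9.19) and Slc4a1 (7.45 against 7.88 to 7.96).

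E12.5 replicate 1 stood apart from the others of its stage in C1qc (5.77 against 6.30 to 6.35). E12.5 replicate 3 stood apart from the others of its stage in Atp5b (13.98 against 14.30 to 14.31), Tfrc (10.71 against 10.14 to 10.19), Wnt7b (10.19 against 10.84 to 10.96) and Xist (9.61 against 4.64 to 4.89). E15.5 replicate 1 stood apart from the others of its stage in Cdkn1a (8.05 against 7.84 to 7.87), Chd5 (6.58 against 7.20 to 7.32), Dclk1 (9.51 against 9.88 to 9.95), Dlgap1 (9.31 against 9.85 to 9.95), Eif2s3y (4.47 against 8.78 to 9.62) and Id4 (11.09 against 10.77 to 10.78). E15.5 replicate 2 stood apart from the others of its stage in Ccno (5.50 against 6.55 to 6.72), Eomes (10.57 against 10.06 to 10.12), Ptbp2 (6.29 against 6.73 to 6.82) and Vim (11.90 against 12.16 to 12.17). E15.5 replicate 3 stood apart from the others of its stage in Rab3a (11.99 against 11.60 to 11.66). E15.5 replicate 4 stood apart from the others of its stage in Clic6 (8.50 against 5.24 to 5.74), Dynlrb2 (7.45 against 4.85 to 5.24), Rbfox3 (11.49 against 11.60 to 11.61) and Ttr (13.42 against 7.0 to 7.12).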

How the results depend on the processing

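Of 197 genes described, 0 reversed direction under any alternative, counting only genes that passed in the fit used here or in the alternative. Changes of sign in genes that passed in neither were not counted. An example is Smarca4 (log2 fold change 0.01, and -0.03 without E12.5 replicate 4). Without background correction, and equally with the authors' processed values, 736 probes were higher and 407 lower. With no minimum fold 4141 were higher and 4279 lower, and at 1.5-fold 2719 and 2732. Leaving out 1 array gave 1247 to 1564 higher and 907 to 1264 lower probes, with the lowest counts without E12.5 replicate 3 and the highest without E12.5 replicate 4. Median scaling gave 1561 higher and 738 lower probes. The methods' t-test, at an unadjusted p under 0.05, passed 10739 probes, of which 9549 passed after Benjamini-Hochberg adjustment, and at the thresholds used here it called 1198 higher and 936 lower. It lost 30 of the 197 genes, against at most 7 under any other alternative. List counts moved by over 1.5 times in 92 cases and by less in 1756. Outside the t-test these included NuRD subunits lower (2 to 3 in place of 5), microglial genes higher (4 to 5 in place of 9), and Wnt genes higher (0 in place of 1). They also included oxidative phosphorylation genes higher (0 to 4 in place of 1), imprinted genes higher (5 in place of 3, with array weights) and thalamic genes lower (1 in place of 3, with median scaling). With the t-test, 3 BAF subunits were higher in place of 10. Without E12.5 replicate 4, 9 Notch genes were lower in place of 11, and 8 Polycomb and DNA methylation genes in place of 10. Without it 7 microglial genes were higher in place of 9, and 28 axon guidance genes in place of 26. With the replicate number as a block, 1316 probes were higher and 1037 lower. The deviations of same-numbered arrays from their stage means correlated at 0.28, -0.35, -0.14 and -0.12, so that the numbers do not pair the arrays. An alternative added after seeing the data, which left out E12.5 replicate 4 and fitted only the arrays of both stages, gave 1537 higher and 1250 lower probes. Probes near background give compressed folds, and without background correction 44 of the 197 genes moved by over 1.5-fold.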

Other observations

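Some of the strongest changes lay outside the lists, and the genes of this paragraph were chosen after their values were seen. Sla, an adaptor protein of the Src family pathway, was 10.72, 11.62, 11.36 and 11.27 at E15.5 and 4.52, 4.69, 4.61 and 9.63 at E12.5 (log2 fold change 5.38, SE 0.86, adjusted p = 1.41e-04). Ndrg1, a stress-responsive gene, was 9.63, 10.32, 10.09 and 9.78 at E15.5 and 4.72, 5.43, 4.81 and 8.50 at E12.5 (4.09, SE 0.62, adjusted p = 8.60e-05). Both were detected at E12.5 on replicate 4 alone, and without it their log2 fold changes were 6.65 and 4.98. Crabp2, a retinoic acid-binding protein, was 6.36, 5.25, 5.61 and 5.79 at E15.5 and 9.56, 9.71, 9.38 and 8.85 at E12.5 (log2 fold change -3.62, SE 0.21, adjusted p = 2.67e-07). It was detected on 2 E15.5 arrays, and every E15.5 array was below every E12.5 array.

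Genes known from multiciliated cells were Ccno and Dynlrb2. Ccno, which is needed to amplify centrioles in such cells, was 6.63, 5.50, 6.55 and 6.72 at E15.5 and 9.77, 9.99, 9.82 and 9.06 at E12.5 (log2 fold change -3.31, SE 0.25, adjusted p = 1.07e-06). Dynlrb2, a dynein light chain of cilia, was 5.24, 4.85, 5.04 and 7.45 at E15.5 and 9.24, 8.98, 9.31 and 7.48 at E12.5 (-3.11, SE 0.53, adjusted p = 2.29e-04). Dynlrb2 was detected at E15.5 on replicate 4 alone, on which the choroid plexus genes were also high. For Ccno the same array was the highest of its stage by a small margin, at 6.72 against 6.63 on replicate 1, and the part of choroid plexus in both falls was not tested.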
